A study of Mus musculus with 2 samples.

Results

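The peaks described here are those that the deposited annotation assigned to 7 genes: Ezh2, Rpl31-ps7, Snurf, Apba2, Pisd-ps1, Gm11400 and Sfi1. The genes were chosen by their number of peaks in these same lists and by how closely those peaks lie together. Numbers of peaks, clustering and the strength of the peaks are therefore given as descriptions, with no test. Together they hold 42 of the 3078 peaks of the control library and 32 of the 1711 peaks of the library made after chronic ocular hypertension (COH), 74 of 4789 in all, and they are 7 of the 3457 genes with a peak in either list.

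Both libraries were made by CUT&Tag, in which an antibody on chromatin directs a transposase to cut and tag the DNA beside it. The antibody was Rac1 antibody ab33186, against a small GTPase that controls the actin cytoskeleton. Nuclei came from the retina of wild type C57BL/6 mice aged 7 weeks, and libraries were amplified with 15 PCR cycles. The control mice had no treatment, and the others had COH, a raised pressure in the eye that serves as a model of glaucoma, for 1 week. The study set out to find genes and transcription factors linked to Rac1. Each condition has 1 library, so no difference between conditions could be tested, and how many mice a library holds is not given in the labels. The number of reads per library is unknown. Of 24 marker genes of retinal cell types, 4 were hit in control (Glul, Nefm, Slc6a9 and Tfap2a) and 1 in COH (Slc6a9). Over all genes, 2893 had a peak in control and 1593 in COH, while RefSeq lists 49997 genes of all kinds. A peak list does not measure expression, so it does not check the tissue.

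Ezh2 encodes the methyltransferase of Polycomb repressive complex PRC2, which places the repressive methyl mark on lysines of histone H3. Snurf lies with Snrpn at the start of the imprinted Prader-Willi domain, whose long transcript Snhg14 carries arrays of small nucleolar RNA (snoRNA) genes in its introns. Apba2 encodes Mint2, an adaptor protein of neurons that binds amyloid precursor protein. Sfi1 encodes a centrin-binding protein of the centrosome. Rpl31-ps7, Gm11400 and Pisd-ps1 are listed as pseudogenes in RefSeq, Rpl31-ps7 by its name a copy of the ribosomal protein gene Rpl31 and Pisd-ps1 a copy of Pisd, which makes phosphatidylethanolamine in mitochondria. Reads from repeated sequence cannot be placed at a single copy with certainty, and copies missing from a genome assembly add their reads to the copies that are present.

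Most peaks of Ezh2 and Rpl31-ps7 lie in the stretch of chromosome 6 between the genes, and RefSeq (GRCm38.p6) lists 12 genes there, among them 6 predicted coding genes and Rn4.5s, a small RNA gene of rodents known from a tandem array. The start windows of these genes, 250 bases before to 50 after a start, were compared letter by letter. Windows of 4 predicted genes, Gm40369, Gm40367, Gm36327 and Gm40364, were identical over all 300 bases, and their starts lay 8600, 12990 and 4325 bp apart. In units of 4325 bp these steps are 1.99, 3.0 and 1. Of all 32851 start windows in the table, 450 (1.37%) had an identical, separate copy. The window of Gm52861 matched the repeated window in 297 of 300 aligned columns (99%). The windows are shown because they are the repeated sequence of the interval that holds these peaks, and the capitals mark the 3 columns in which the copies differ, 1 of them a base missing from Gm52861. The first copy is that of Gm40369 at chr6:47653742-47654041 on the + strand of GRCm38.p6, and the Gm52861 window is chr6:47738587-47738886 on the + strand.

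repeated window of Gm40369, Gm40367, Gm36327 and Gm40364: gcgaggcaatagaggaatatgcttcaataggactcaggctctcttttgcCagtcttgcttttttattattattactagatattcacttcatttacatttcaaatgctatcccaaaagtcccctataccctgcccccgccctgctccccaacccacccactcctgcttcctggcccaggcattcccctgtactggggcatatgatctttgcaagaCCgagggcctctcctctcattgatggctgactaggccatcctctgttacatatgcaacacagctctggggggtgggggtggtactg
Gm52861: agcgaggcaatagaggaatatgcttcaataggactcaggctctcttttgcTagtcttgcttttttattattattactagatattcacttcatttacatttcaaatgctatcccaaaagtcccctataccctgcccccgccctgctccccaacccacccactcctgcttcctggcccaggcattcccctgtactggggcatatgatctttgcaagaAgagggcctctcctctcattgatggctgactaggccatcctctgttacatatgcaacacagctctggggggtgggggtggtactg

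A second sequence of the same interval was shared by another start window of Gm40369 and the window of Gm52862, over a run of 38 bases at chr6:47652664-47652701 on the + strand of GRCm38.p6. It is shown as a further copied sequence of the interval, with no letters capitalised.

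run shared by Gm40369 and Gm52862: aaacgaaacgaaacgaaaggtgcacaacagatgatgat

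The start window of Ezh2 itself is shown for contrast, since only the control library had a peak at that start. It lies at chr6:47594981-47595280 on the − strand of GRCm38.p6. Capitals mark 3 matches to CCAAT on either strand and 1 match to TTTGGCGC, a form of the E2F motif, also searched on both strands. Of all start windows, 37.4% held at least 1 CCAAT, 3.37% held at least 3, and 0.514% held TTTGGCGC. These matches are letters in a window and show no binding.

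Ezh2: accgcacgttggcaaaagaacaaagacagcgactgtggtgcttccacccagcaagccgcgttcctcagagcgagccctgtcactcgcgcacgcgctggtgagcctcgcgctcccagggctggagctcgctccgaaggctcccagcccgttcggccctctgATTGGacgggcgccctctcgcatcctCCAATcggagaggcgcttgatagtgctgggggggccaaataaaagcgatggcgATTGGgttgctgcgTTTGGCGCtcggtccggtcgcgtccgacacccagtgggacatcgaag

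The peak positions below are those of the deposited lists. Their build is unsettled: the processing notes name mm9, and none of the 7 genes (0) has an end within 100 bp of its place in the RefSeq table. The windows above and the peaks below were therefore not laid on each other, and distances are taken within each source. A pileup is the height of overlapping reads at a peak, with no stated scaling, and the fold is the pileup over the caller's local background.

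The first feature is the number of peaks. Rpl31-ps7 had 10 control peaks and 8 COH peaks, Snurf 9 and 7, and Ezh2 8 and 5. Apba2 had 5 and 1, Pisd-ps1 4 and 3, Gm11400 3 and 6, and Sfi1 3 and 2. Only Gm11400 had more peaks in the COH list, which is the shorter list as a whole. At least 3 peaks were found for 21 of 2893 genes in control (0.726%) and for 13 of 1593 genes in COH (0.816%), against 7 of 7 and 5 of 7 of these genes, whose choice used that count. The choice had no sharp limit, since Samd11, Gm21836, Smok4a and Cd83 also had 3 control peaks, as many as Gm11400 and Sfi1. A single peak was found for 95.3% of control genes and 94.6% of COH genes. The genes with at least 4 peaks that are not among the 7 were Asmt, the last enzyme of melatonin synthesis, with 8 and 7 peaks, and the predicted gene Gm21769, with 4 and 4.

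The peaks also lay close together. A peak was counted as clustered where a window of 100 kb held at least 5 peaks of its list. This held for 36 of the 42 control peaks and 29 of the 32 COH peaks, against 1.92% of all control peaks and 3.1% of all COH peaks. The 7 genes accounted for 61.0% of all clustered control peaks and 54.7% of those in COH. None of the Apba2 peaks was clustered by this measure, 0 of 5 and 0 of 1, but with at least 3 peaks in 100 kb in place of 5, 4 of its 5 control peaks were. Neighbouring peaks of a gene were separated by a median of 4764 bp (control) and 7026 bp (COH), while neighbouring peaks of the whole lists had median gaps of 429 kb and 903 kb.

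**Figure D1:**
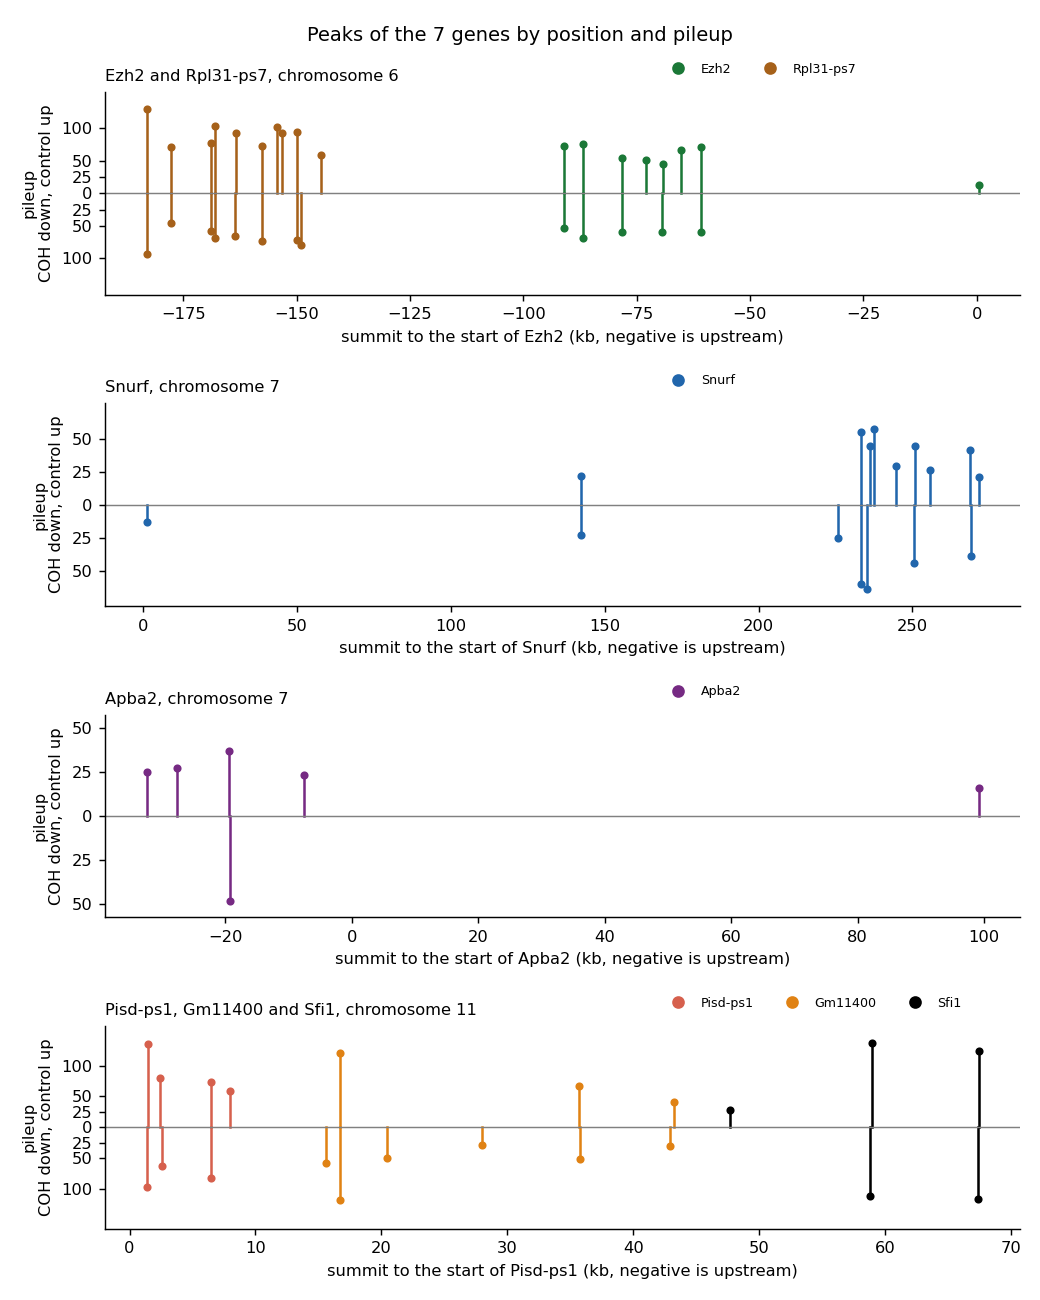
Each stem is a peak, placed by its summit in kb from the start of the named gene (negative is upstream of that gene), with control pileup drawn upwards and COH pileup drawn downwards. The 8 control and 5 COH peaks of Ezh2 lie upstream but for 1 control peak of pileup 13 at the start, and the Snurf peaks lie far inside the domain but for 1 COH peak of pileup 13.

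Ezh2 had its peaks away from the gene. A row of 7 control peaks and 5 COH peaks lay upstream, at -60.4 to -90.6 kb, between chr6:47632641-47663512 as deposited, each classed as distal intergenic. The control pileups along the row were 71, 67, 45, 51, 54, 75 and 72, and the COH pileups were 59, 60, 59, 69 and 53. The folds were 2.08 to 4.67 in control and 3.48 to 4.29 in COH, so every peak of the row lay below the median fold of its list, 5.24 and 5.45. The control peak of fold 2.08, at -69.2 kb, ranked 3075 of 3078 by fold and 146 by pileup. These peaks were thus tall but of low fold for their list.

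The start of Ezh2 differed between the lists. In control a peak of pileup 13 and fold 4.93 lay in the 5' UTR, 29 bp from the start, at chr6:47571553-47572246. The COH list held no peak there, and a missing peak says only that the site did not pass the caller's threshold. Most other PRC2 genes with a control peak had it near their starts, at pileups of 12 to 24. Eed, the subunit that reads the mark, had a promoter peak of pileup 17 and fold 5.31. Rbbp4, a histone chaperone, had a promoter peak of pileup 18 and fold 4.94. Jarid2, a cofactor, had a 5' UTR peak of pileup 24 and fold 5.83. Phf19 was the exception, with a peak of pileup 34 and fold 6.69 at 8504 bp from its start, in exon 6 of 15. Of 13 PRC2 genes, 7 were hit in control (also Aebp2, Phf19 and Rbbp7) and 2 in COH (Ezh2 and Aebp2), and for Ezh2 in COH this was the upstream row alone. Without Ezh2, which was chosen for its peaks, 6 were hit in control and 1 in COH. Over all genes, 2893 had a peak in control and 1593 in COH, while RefSeq lists 49997 genes of all kinds. Whether PRC2 genes were hit more often than other genes was not tested.

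The spacing of the upstream row was set against the repeat unit. From summit to summit the 5 COH peaks stood 8674, 8661, 8696 and 4195 bp apart, which is 2.01, 2.0, 2.01 and 0.970 units of the 4325 bp found between the repeated start windows. The control row had steps of 4419, 4076, 3617, 5378, 8714 and 4078 bp. Within 0.1 unit of a whole number lay 4 of 4 COH steps and 4 of 6 control steps. Over all neighbouring peaks of a list with a step of 0.5 to 4.5 units, 23.1% of 108 control steps and 21% of 62 COH steps did so, and the steps without any of the 7 genes gave 17.9% of 78 and 12.2% of 41. The unit and the tolerance were set after the spacings had been seen, and the steps of a row share peaks, so these counts are a description.

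**Figure D2:**
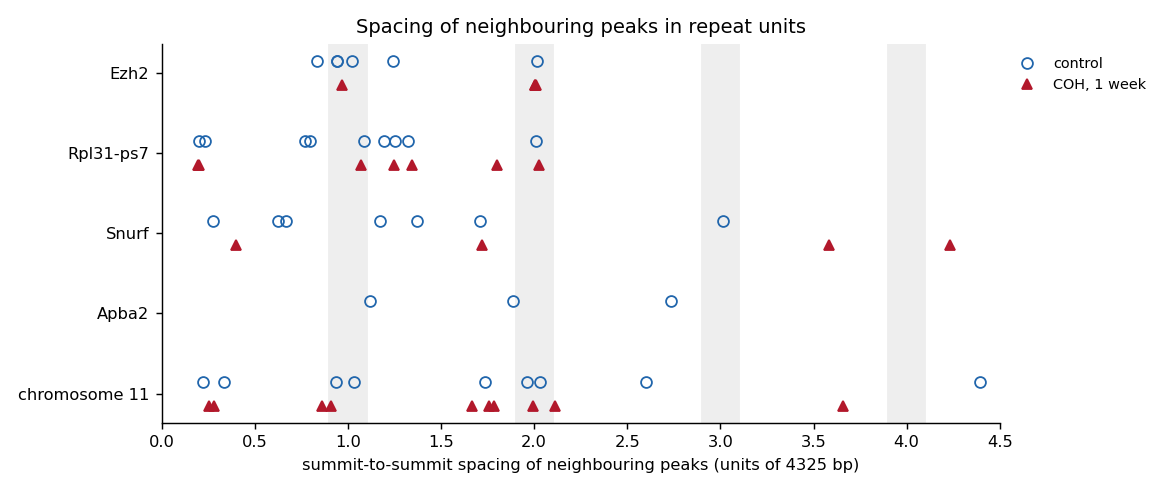
The horizontal axis is the summit-to-summit distance of neighbouring peaks in units of 4325 bp, and grey bands mark 0.1 unit on either side of a whole number. The 4 COH steps of Ezh2 (triangles) lie in the bands at 1 and 2 units, 3 of them drawn on each other near 2 units, while the steps at the other genes lie inside and outside the bands.

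Rpl31-ps7 had the most peaks, all 10 and 8 of them distal intergenic, 7.8 to 46.2 kb from its start and between chr6:47716656-47755531 as deposited. The control pileups were 59, 94, 93, 102, 72, 93, 104, 78, 71 and 130. The COH pileups were 79, 72, 73, 65, 69, 58, 45 and 94. The smallest Rpl31-ps7 pileup was thus 59 in control and 45 in COH, against list medians of 17 and 16.

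A single peak of Rpl31-ps7 stood apart from the others. At 7777 bp from the start it had pileup 130 with fold 14.6 in control, rank 54 of 3078 by fold, against pileup 94 with fold 13.1 in COH, rank 62 of 1711. The other 9 control peaks had folds of 2.59 to 5.79, and the other 7 COH peaks folds of 3.17 to 5.19. The background implied by pileup and fold was 7.97 at this control peak, the lowest of the 10, and up to 34.3 at the others. The peaks nearest to the gene, at 7777 and 13180 bp in control, were those with the lowest background and the highest fold.

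Fewer of the steps at Rpl31-ps7 lay near whole units. Within 0.1 unit lay 2 of 7 control steps and 2 of 5 COH steps between 0.5 and 4.5 units. Each list also had very short steps, of 1002 and 858 bp in control and 861 and 842 bp in COH. The steps of 858 and 842 bp joined the same peaks in both lists, while each of the others involved a peak without a counterpart. Of the 24 Rpl31 pseudogenes in the RefSeq table, only Rpl31-ps7 and Rpl31-ps5 were assigned a peak. The Rpl31-ps5 peak, of control pileup 20 and fold 6.04, lay at -103856 bp from its start and was classed as 3' UTR. It was therefore not a peak at that pseudogene. For scale, 2893 genes had a peak in control and 1593 in COH, while RefSeq lists 49997 genes of all kinds. Rpl31 itself had none. Zfp786, a zinc finger gene past the cluster, had a 5' UTR peak of pileup 16 and fold 6.08 in control and of pileup 9 and fold 4.16 in COH.

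Snurf was the assigned gene of peaks that lay inside another transcript. Of 9 control peaks 8 lay in Snhg14 and 1 in Gm25350, and of 7 COH peaks 6 lay in Snhg14 and 1 in Gm38393. They stood 142 to 271 kb from the start of Snurf in control. Over all intron and exon peaks, 50.4% in control (247 of 490) and 49.7% in COH (169 of 340) lay inside a gene other than the assigned gene, so this is common in these lists. For the 7 genes together the counts were 12 of 16 and 11 of 13.

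The Snurf peaks fell into a dense stretch and a few outlying peaks. Between chr7:59383125-59421569 as deposited, 8 control peaks had pileups of 21, 41, 26, 44, 29, 57, 44 and 55 and folds of 3.0 to 7.10. In COH 4 peaks of the same stretch and 1 just beyond it, at chr7:59428605-59428906, had pileups of 39, 44, 64, 60 and 25 and folds of 4.36 to 6.50. Of these, 6 of 8 and 4 of 5 were classed in intron 1 of 5 of Snhg14, not counting the control peak named for Gm25350. Both lists had a further peak in exon 1 of 3 of another Snhg14 transcript, at pileup 22 with fold 2.95 in control against pileup 23 with fold 3.07 in COH.

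Near the start of Snurf the lists differed, as at Ezh2 but in the other direction. A COH peak of pileup 13 and fold 5.29 lay 798 bp from the start, and control had none there. Of the 1340 snoRNA genes that RefSeq lists, 206 (15.4%) lie inside Snhg14, with a median spacing of 1872 bp and quartiles of 1870 and 2524 bp. Of the Snurf steps, 1 of 6 in control and 0 of 3 in COH lay near a whole number of 4325 bp units. The unit comes from chromosome 6, so this count says nothing about repeats at Snurf. Whether the peaks lie on snoRNA genes was not tested, as no genome of the build of the lists was used here.

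Other genes of the Prader-Willi and Angelman region had single peaks. Of 17 genes of that list, 6 were assigned a peak in control and 2 in COH, or 5 and 1 without Snurf. The whole lists hold 2893 genes in control and 1593 in COH, while RefSeq lists 49997 genes of all kinds. Whether the region was hit more often than other genes was not tested. Ube3a, a ubiquitin ligase, had a control promoter peak of pileup 17 and fold 5.93, and Ndn, an imprinted MAGE family gene, had a 5' UTR peak of pileup 11 and fold 5.50. Herc2 had a control promoter peak of pileup 12 and fold 4.28. Gabrg3, a GABA receptor subunit gene, had an intron peak in both lists, at pileup 28 with fold 9.51 in control against pileup 22 with fold 7.66 in COH. Snurf was thus the only gene of that list with more than 1 peak.

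Apba2 had the lowest median control pileup of the 7 genes, 25. In control 4 peaks lay upstream, at -32.3 to -7.5 kb, with pileups of 25, 27, 37 and 23 and folds of 4.30 to 5.12. The other control peak, of pileup 16 and fold 6.34, lay 99.0 kb into the gene in intron 2 of 14. The COH list held only the peak at -18.9 kb, at chr7:64131949-64132552, at pileup 48 with fold 6.84. At the same place control had pileup 37 with fold 5.12. That pair began at the same base in both lists, and the other control peaks had no counterpart.

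The other peaks among the relatives and partners of Apba2 lay at promoters. Apba1, which encodes the related adaptor Mint1, had a control promoter peak of pileup 14 and fold 4.44. Syt1, the calcium sensor of synaptic vesicles, had a promoter peak of pileup 19 and fold 4.68 in control and of pileup 12 and fold 4.64 in COH. Nrxn2, a presynaptic adhesion gene, had a COH promoter peak of pileup 16 and fold 4.64. In each list 3 of 14 Mint genes and partners had a peak, or 2 without Apba2. Across all genes, 2893 had a peak in control and 1593 in COH, while RefSeq lists 49997 genes of all kinds. Whether these genes were hit more often than others was not tested. App, a ligand of the adaptors, was in neither list.

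Pisd-ps1, Gm11400 and Sfi1 shared a single run of peaks on chromosome 11. In control 10 peaks of these genes lay between chr11:3077044-3143504 as deposited, and in COH 11 peaks lay in the same run. RefSeq lists Sfi1, Gm33862 and Gm11400 between Pisd-ps1 and Fau-ps2, and the annotation placed several peaks inside Sfi1 that it assigned to its neighbours. By intron or exon class, 2 of the Gm11400 peaks in control, 4 in COH and 1 control peak of Pisd-ps1 were inside Sfi1. The other Gm11400 peaks, classed as 3' UTR or promoter, lay by position between peaks classed inside Sfi1. Peak counts of the 3 genes are therefore parts of 1 locus. Of the steps between their peaks that were counted, 4 of 7 in control and 2 of 8 in COH lay within 0.1 of a whole number of 4325 bp units, and at Apba2 0 of 3 did in control. That unit was measured on chromosome 6, so these counts say nothing about repeats at these genes.

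Pisd-ps1 had 2 peaks in each list inside the gene itself, in an exon and in an intron. The peak in exon 2 of 3 had pileup 135 with fold 6.25 in control against pileup 96 with fold 6.21 in COH. The peak in intron 2 of 2 reached pileups of 80 and 62, with folds of 3.44 and 3.42. The other peaks had control pileups of 73 and 59 and a COH pileup of 82, with folds of 3.32 and 3.46 in control and of 4.42 in COH. A second copy of the gene, Pisd-ps2, had pileup 108 with fold 8.13 in control against pileup 80 with fold 8.49 in COH, whereas Pisd had no peak in either list.

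The strongest Gm11400 peak, in a 3' UTR at about 8.1 kb from its start, had pileup 120 with fold 6.72 in control against pileup 117 with fold 6.56 in COH. Control pileups at the other 2 peaks were 67 and 41, and COH had pileups of 51 and 30 there. The further COH peaks had pileups of 58, 49 and 28 and folds of 3.17, 3.19 and 3.61. The COH peak of pileup 58 overlapped the edge of the wide control peak of pileup 120, which was 1061 bp long, so only 2 of the 6 COH peaks, in exon 14 of 32 of Sfi1 and at -2.9 kb from the start of Gm11400, lay where control had none.

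Sfi1 itself had tall and weakly enriched peaks. At its start the pileup was 124 and the fold 2.78 in control, and 116 and 2.60 in COH. The background implied there was 44.0 and 44.1, the highest of any of these peaks in either list. A wide peak, 1442 bp long in control against 1374 bp in COH, lay about 7.8 kb away in a 3' UTR and had pileup 137 with fold 4.15, and pileup 112 with fold 3.54. The remaining control peak, of pileup 28 and fold 2.83 in intron 5 of 31, had no COH counterpart. Next to Sfi1, the pseudogene Fau-ps2 had a peak of pileup 120 and fold 3.11 in control and of pileup 106 and fold 2.73 in COH, at 2315 and 2379 bp from the nearest Sfi1 peak. Cetn3, a centrin, had 5' UTR peaks of pileup 18 and 19 with folds of 7.01 and 6.24, and it was the only gene of 6 in the centrin list besides Sfi1 with a peak. Counted over every gene, 2893 had a peak in control and 1593 in COH, and RefSeq lists 49997.

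Across the 7 genes most peaks were tall but of low fold. A pileup of at least 40 was found for 31 of the 42 control peaks and 26 of the 32 COH peaks, against 6.43% and 8.94% of the lists. Their median fold was 3.78 in control and 3.92 in COH, against 5.24 and 5.45 for the lists. A pileup of at least 40 together with a fold below the median of the list was found for 25 of 42 control peaks and 21 of 32 COH peaks, against 1.69% and 2.57% of the lists. The 7 genes held 48.1% of the 52 such control peaks and 47.7% of the 44 such COH peaks. The value of 40 was set after the pileups had been seen. Apba2 in control had none (0 of 5) of these tall peaks.

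**Figure D3:**
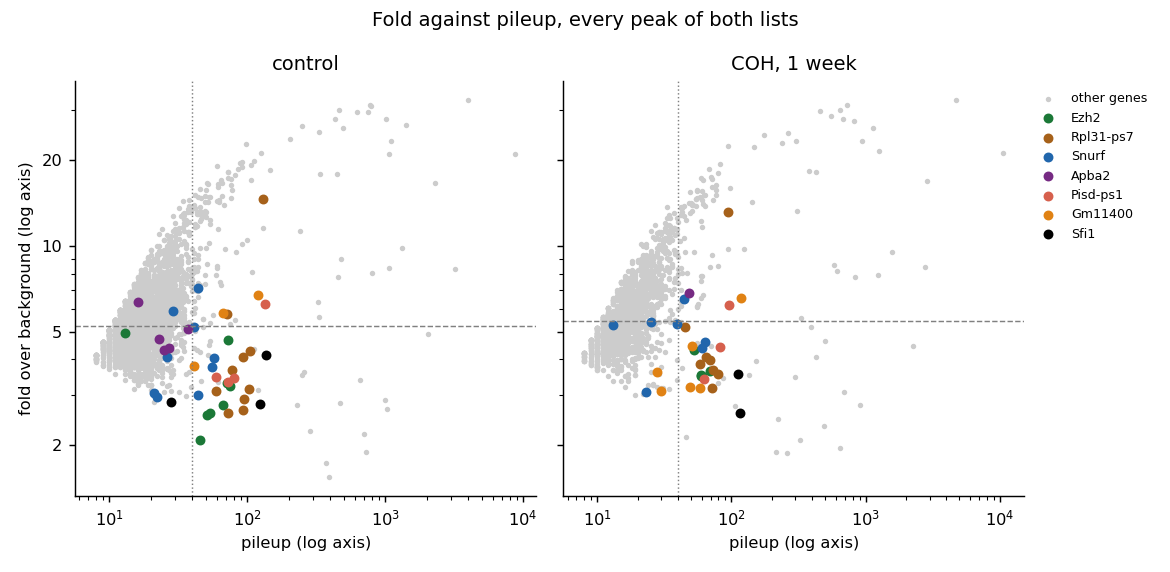
Each point is a peak, with pileup and fold over background on log axes, control at the left and COH at the right, coloured by gene, with all other peaks in grey. The dashed line is the median fold of the list (5.24 and 5.45) and the dotted line a pileup of 40, and most peaks of the 7 genes lie to the right of the dotted line and below the dashed line.

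The local background gives the same picture as a number. It was computed as (pileup + 1) / fold − 1, and a Poisson tail with this mean gave the deposited p-value within 1% on the −log10 scale at all 3056 control and 1689 COH peaks that could be compared. The median implied background was 15.5 in control and 14.6 in COH, against 2.39 and 2.03 over the lists. By gene the control medians were 32.2 at Sfi1, 22.8 at Rpl31-ps7, 21.0 at Pisd-ps1, 20.6 at Ezh2, 10.7 at Gm11400, 6.79 at Snurf and 5.04 at Apba2. In COH they were 37.5 at Sfi1, 17.4 at Pisd-ps1, 16.2 at Ezh2, 15.9 at Rpl31-ps7, 12.6 at Gm11400, 6.51 at Snurf and 6.17 at Apba2. The peaks at the starts of Ezh2 in control and of Snurf in COH had the low values of 1.84 and 1.65. Both lay below the median of their list, while the Sfi1 start peaks had the highest values among the peaks of the 7 genes. The part of repeated sequence in these values was not tested, since it needs the genome of the build the lists use.

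Many of the peaks recurred in the other list. An overlap of at least 1 bp with a peak of the other list was found for 25 of 42 control peaks, 59.5% (exact Clopper-Pearson 95% interval 43.3 to 74.4), and for 26 of 32 COH peaks, 81.2% (63.6 to 92.8). Over all peaks the shares were 34.3% of the control list and 61.8% of the COH list. Other peaks with a fold between the quartiles of these peaks overlapped in 18.0% of 1125 cases in control and 42.1% of 684 in COH. Other peaks with a pileup between their quartiles overlapped in 93.5% of 124 and 97.7% of 43. Other peaks with both a pileup of at least 40 and a fold below the median of the list overlapped in 23 of 27 cases in control (85.2%) and 22 of 23 in COH (95.7%). The share of the 7 genes thus lay above that of other peaks of like fold and below those of other peaks of like pileup or of high pileup with low fold, with no test. The intervals cover counting error only and treat neighbouring peaks of a few loci as independent, which they are not shown to be.

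The recurring peaks were set side by side in 25 pairs. The COH pileup was the lower in 17 of 25 pairs (68.0%), with a median ratio of 0.831 to control, against 70.1% of 1031 pairs of other genes with a median of 0.852. The COH fold was the higher in 13 of 25 pairs (52.0%), against 46.2% of the others. The implied background was the lower in COH in 22 of 25 pairs (88.0%), against 78.0% of the others. The pileups have no stated scaling between libraries, so the ratios were not read as changes in binding.

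By locus the pileup was lower in COH in most pairs except at Snurf and Apba2. At Rpl31-ps7 this held for 6 of 7 pairs, with a median ratio of 0.723, and at Ezh2 for 3 of 5, with 0.920. It held for 3 of 3 at Gm11400, 2 of 3 at Pisd-ps1 and 2 of 2 at Sfi1. At Snurf it held for 1 of 4, with a median ratio of 1.02, and at Apba2 for 0 of 1. The fold was higher in COH in 4 of 5 pairs at Ezh2, 4 of 7 at Rpl31-ps7, 3 of 4 at Snurf and 1 of 1 at Apba2. It was higher in 1 of 3 at Pisd-ps1, 0 of 3 at Gm11400 and 0 of 2 at Sfi1. The largest rise in fold at Ezh2 was at the peak at -69.2 kb, where it was 2.08 in control and 3.49 in COH. No pair has a replicate, so these ratios have no error between animals.

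**Figure D4:**
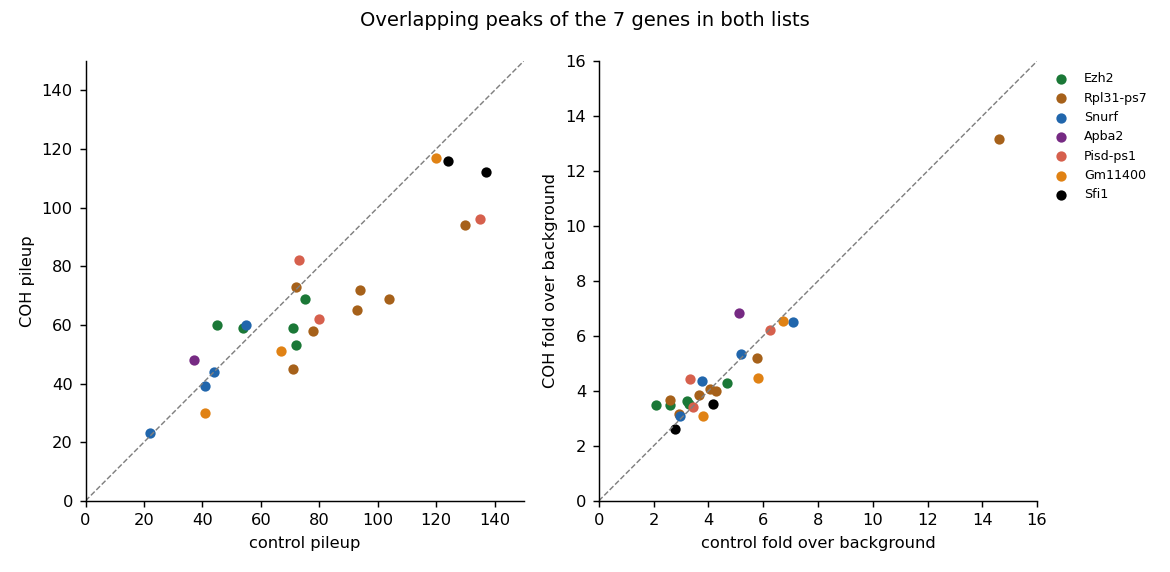
Each point is a peak found in both lists, with the control value on the horizontal and the COH value on the vertical axis, for pileup at the left and fold over background at the right, and the dashed line marks equal values. Of the 25 pairs, 17 lie below the line for pileup and 13 above it for fold, with the strongest Rpl31-ps7 peak far from the rest in fold.

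Positions recurred closely. The summits of a pair lay a median of 44 bp apart, with a largest offset of 283 bp, against a median of 71 bp for pairs of other genes and 16 bp for those with a control pileup of at least 40. At Rpl31-ps7 the median offset was 4 bp over 7 pairs. The first base was the same in both lists in 6 of 25 pairs (24.0%), against 8.05% of pairs of other genes and 17.2% of those with a control pileup of at least 40. Identical first bases were found at Ezh2, Rpl31-ps7, Snurf, Apba2 and Sfi1. The last base was the same in 2 of 25 pairs (8.0%), at Ezh2 and Snurf. That compares with 6.50% of pairs of other genes and 17.8% of those with a control pileup of at least 40.

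The genes outside the 7 with the most peaks had part of the same features. Asmt had control pileups of 19 to 65 with a median fold of 5.19, and COH pileups of 15 to 79 with a median fold of 5.22. Of its 8 control peaks 5 were clustered, and 6 of 8 overlapped a COH peak. Gm21769 had control pileups of 24 to 31 and a median fold of 4.11, with 4 of 4 peaks clustered and 4 of 4 overlapping a COH peak. The median folds of Ezh2, Rpl31-ps7 and Sfi1 in control, 2.99, 3.40 and 2.83, lay below those of both genes. They were not the lowest among genes with several peaks. Gm21836, with 3 control peaks, had a median fold of 2.68 at control pileups of 727 to 3205, and 3 of 3 overlapped a COH peak. Gm21119, also with 3 control peaks, had a median fold of 3.20 at pileups of 20 to 39.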

How the data were processed

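For the CUT&Tag libraries of retinal nuclei, the submitters' processing notes name the trimmer cutadapt 1.9.1, the aligner Bowtie2 and the build mm9. Which caller and background library were used, and how duplicates were handled, is not given in the sources used here. The 2 lists were taken as separate calls. The signal (pileup), the fold (a ratio over background), the −log10 p and −log10 q values and the other values, positions and distances to a start, are those the authors deposited, per the file headers. Headings of the p and q columns held a spreadsheet error, so they were read from their place and values.

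Peaks of the 7 genes were taken by the assigned gene name. The members and gene lists were chosen with earlier results of these data known, and the genes named are the 7 members, genes hosting or assigned to peaks of their clusters, neighbours in RefSeq, other genes with at least 4 peaks, and members of the lists that hold a peak. Further genes with 3 peaks, markers and pathway genes without a peak were added with their values known. Neighbours, names and sequences come from RefSeq tables of GRCm38.p6. Shares have exact Clopper-Pearson 95% intervals. With 1 library per group there is no test. Alternatives were peaks above the median fold, lists of equal length, −log10 q of at least 5, a pileup of at most 100, merging within 1000 bp, other cluster windows, other overlaps and another background form. The overlap, cluster and spacing steps were tested on simulated data. Python 3.11.15, pandas 2.3.3, SciPy 1.17.1, Biopython 1.88 and matplotlib 3.10.9 were used.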

Additional observations from a re-analysis of the deposited data

How the results depend on the processing

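Over 45 alternatives to 12 results, 40 left the value within its interval, or a count within 1.5 times, and 5 moved it. Among the 40, lists of equal length could not move the COH count, since the COH list is the shorter and was kept whole. The counts of host genes had no alternative. Keeping only peaks above the median fold left 8 control and 5 COH peaks of the 7 genes and median folds of 6.30 and 6.56, which follows from the construction, and it left Ezh2 and Sfi1 with 0 peaks in both lists; in COH no gene then had a pair of neighbouring peaks, so no gap could be given. Cutting the control list to its 1711 strongest peaks by fold left 10 of the 42 control peaks. This too follows largely from the construction, since 34 of the 42 lay below the median fold of the list. Keeping control peaks with −log10 q of at least 5 left 37 of the 42. No paired analysis was possible because each group has 1 library. The depth of the libraries is unknown, so neither an absent peak nor a ratio of pileups could be set against it.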
